A study of Mus musculus with 2 samples.

Results

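The genes described are 8 of the 32285 features in the count tables: *Casp2*, *Casp8*, *Casp9*, *Apaf1*, *Cycs*, *Diablo*, *Xiap* and *Endog*, chosen by symbol. They were measured in Cajal-Retzius (CR) cells, early-born neurons that die in large numbers after birth, taken from the mouse hippocampus at postnatal day 14 (P14). The control library came from 4 *ΔNp73-Cre; Cic flox/+; tdT* mice, 3 males and 1 female, and the knockout library from 4 *ΔNp73-Cre; Cic flox/flox; tdT* littermates, 2 males and 2 females. *Cic* encodes capicua, a transcriptional repressor. All mice carried Cre under the *ΔNp73* promoter, which is active in the CR cell lineage, and a Cre-dependent tdTomato reporter, so the control cells were themselves conditional heterozygotes. Live cells (DAPI-, tdT+) were sorted after papain dissociation, so cells that had already lost their membrane integrity were removed before sequencing. Animals were pooled and each genotype was 1 library of 10x 3′ single-cell RNA-seq. There is therefore no replicate of either genotype and no test, and genotype, library and sex ratio cannot be told apart. The intervals given are exact 95% intervals that cover counting error only.

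The intrinsic death pathway begins at the mitochondrion. Cytochrome c, encoded by *Cycs*, carries electrons in the respiratory chain, and once it leaves the intermembrane space it binds APAF1, which assembles into the apoptosome and activates caspase-9. XIAP holds caspases in check, Smac (encoded by *Diablo*) displaces XIAP, and endonuclease G (*Endog*) is a mitochondrial nuclease that can cut nuclear DNA. Caspase-8 starts the extrinsic route from death receptors, and caspase-2 is an initiator activated on its own platform. Most of this machinery acts through cleavage, release and binding of proteins, which RNA counts do not measure.

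CR cells were taken as barcodes with at least 2000 unique molecular identifiers (UMIs, counted molecules) and at least 5 *Reln* UMIs, which gave 1003 control and 390 knockout cells that shared 0 barcodes. The libraries held 16336796 and 6777071 UMIs in all, and the cells had a median of 6224 and 6664 UMIs. All 8 of 8 CR markers were detected in at least 25% of the cells of each library, and they summed to 11177 UMIs per 1000000 (CPM, scaled outside mitochondrial and ribosomal protein genes) in control and 11095 in knockout cells, whereas the 12 lists for other cell types summed to at most 81.0 and 78.5 CPM. *Reln* itself was used to choose the cells and is no check. It is among the 8 markers and in their sum, so that part of the contrast was fixed by the choice of cells. *Cic* stood at 58.9 CPM in control and 51.3 CPM in knockout cells, a ratio of 0.871 (0.714–1.06). The sequenced 3′ ends need not lie in the deleted exons, so this level is no check of the deletion. By staining, the study found capicua lost from most but not all hippocampal CR cells of this knockout line. Part of the knockout library may therefore retain it, and the ratios given below average over such cells.

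The cells were also divided within each library by the share of their UMIs that came from 98 nuclear genes of oxidative phosphorylation, none of which is among the 8 genes. A share of at least 1.8% defined 83 respiratory-high control cells against 920 other cells, and 34 against 356 in the knockout. This is a range cut from a score and not a cell type, and 33 control and 14 knockout cells lay between 1.5 and 2.1%. The respiratory-high cells were deeper, with a median of 13502 UMIs against 6064 in control and 14229.5 against 6419.5 in knockout. A smaller share of their UMIs was mitochondrially encoded (1.89 against 3.17% in control, 2.29 against 3.88% in knockout). The share of nuclear-retained transcripts was smaller too (3.40 against 7.47%, 3.59 against 7.45%). *Pcp4*, a calmodulin-binding peptide gene, was at 1854 against 216 CPM in control and 1597 against 174 CPM in knockout. Near-empty droplets of 20 to 100 UMIs, which carry free RNA, lay on the same side in these measures, with 4.61 and 4.44% of UMIs from respiratory genes, 0.501 and 0.644% mitochondrially encoded, 0.846 and 0.808% nuclear-retained, and *Pcp4* at 3282 and 2927 CPM. The part of depth, free RNA or transcript retention in the differences between the ranges was not tested, except where a value below bears on it.

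On GRCm38, *Cycs* lies at chr6:50562563-50566538 on the minus strand, *Apaf1* at chr10:90989311-91082770 (minus), *Casp9* at chr4:141793612-141815976 (plus), *Casp2* at chr6:42264985-42282508 (plus), *Casp8* at chr1:58795374-58847503 (plus), *Diablo* at chr5:123509765-123524176 (minus), *Xiap* at chrX:42059679-42109656 (plus) and *Endog* at chr2:30171493-30174069 (plus). All are annotated as protein coding. The promoters of 4 genes are shown because their levels separated the cell ranges in different ways: *Cycs*, *Diablo* and *Endog* were higher in the respiratory-high cells of the control library and *Apaf1* was not. Each runs 5′ to 3′ on the strand of the gene, from 250 bases before the RefSeq start site to 50 after it (GRCm38.p6). Capitals mark matches, on either strand, to a core motif of the nuclear respiratory factor NRF1 (GCGCATGC), the cAMP response element (TGACGTCA) or an ETS site (CCGGAAGT). The coordinates are chr6:50566520-50566819 (minus), chr10:91082694-91082993 (minus), chr5:123524115-123524414 (minus) and chr2:30171274-30171573 (plus).
Cycs: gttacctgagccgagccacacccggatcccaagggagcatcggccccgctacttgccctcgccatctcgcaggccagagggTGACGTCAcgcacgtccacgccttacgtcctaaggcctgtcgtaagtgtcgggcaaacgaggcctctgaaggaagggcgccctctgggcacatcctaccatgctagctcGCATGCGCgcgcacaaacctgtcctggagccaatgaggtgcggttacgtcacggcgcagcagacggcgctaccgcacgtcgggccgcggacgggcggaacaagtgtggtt
Apaf1: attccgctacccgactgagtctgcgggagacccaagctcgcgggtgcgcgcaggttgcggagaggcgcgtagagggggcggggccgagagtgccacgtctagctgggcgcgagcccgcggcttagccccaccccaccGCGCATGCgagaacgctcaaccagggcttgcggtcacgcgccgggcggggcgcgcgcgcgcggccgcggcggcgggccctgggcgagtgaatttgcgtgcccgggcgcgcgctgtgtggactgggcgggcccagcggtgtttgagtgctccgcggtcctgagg
Diablo: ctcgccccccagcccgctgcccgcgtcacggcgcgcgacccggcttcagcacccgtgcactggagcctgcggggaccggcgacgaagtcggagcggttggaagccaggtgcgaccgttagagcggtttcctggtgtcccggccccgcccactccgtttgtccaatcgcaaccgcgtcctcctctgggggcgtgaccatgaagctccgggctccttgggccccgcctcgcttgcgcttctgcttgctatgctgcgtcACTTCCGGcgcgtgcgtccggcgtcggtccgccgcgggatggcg
Endog: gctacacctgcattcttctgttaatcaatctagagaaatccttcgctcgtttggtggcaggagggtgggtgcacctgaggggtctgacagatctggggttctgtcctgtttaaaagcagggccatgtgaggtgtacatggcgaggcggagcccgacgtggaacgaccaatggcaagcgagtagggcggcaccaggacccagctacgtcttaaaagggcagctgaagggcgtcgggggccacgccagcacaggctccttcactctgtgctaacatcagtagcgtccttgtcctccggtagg

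The *Cycs* window held the NRF1 core 60 to 53 bases before the start site and the cAMP response element 169 to 162 bases before it. The *Apaf1* window held the NRF1 core 113 to 106 bases before the start. The *Diablo* window held the ETS letters 6 to 13 bases after the start, and the *Endog* window held none of the 3. Among 32851 promoter windows of this length, 2.71% held the NRF1 core, 1.79% the cAMP response element and 3.89% the ETS letters. Each of these 3 motifs contains a CpG, and the shares among windows as rich in CpG as these were not counted. The octamers bound by capicua (TGAATGAA, TGAATGGA and TCAATGAA, in 1.30, 1.21 and 0.749% of windows) were in none of the members' windows, which says only that these letters are not there. GC content was 65% in *Cycs*, 74.7% in *Apaf1*, 71.7% in *Diablo* and 57.7% in *Endog*, with 32, 46, 42 and 15 CpG dinucleotides, against medians of 52.7% and 7 over all windows. The *Casp8* window, at 42% GC with 5 CpG, was below both medians.

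The first question was whether these genes differed in CR cells between the knockout library, in which some cells may retain capicua, and the control. In all cells of each library, 1 of the 8 genes, *Casp8*, differed by at least 1.5-fold between knockout and control with at least 30 UMIs in all, against 10.5% of all genes counted in the same way. The other 7 were within 1.5-fold, and the median ratio over the 8 was 1.03 against 1.01 over all genes.

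*Casp8* gave 34 UMIs in control and 2 in knockout cells, or 5.15 against 0.723 CPM, a ratio of 0.140 (0.0163–0.548). The control value came mostly from 1 cell. That cell, with 4731 UMIs, 29 *Reln* UMIs and a respiratory share of 0.864%, held 26 of the 34 *Casp8* UMIs. The remaining 8 UMIs lay in 7 cells with at most 2 each. Without that cell the control level was 1.21 CPM and the ratio 0.596 (0.0617–2.99), with an interval that holds 1. Such concentration was uncommon: of 11550 control genes with at least 30 UMIs, 20 had at least 50% of their UMIs in 1 cell and 5 had a share as high as that of *Casp8*, whereas the median gene had 2.14%. Near-empty droplets held *Casp8* at 15.6 CPM in control and 5.27 CPM in knockout, above the cells of both libraries.

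Of the apoptosome genes, *Cycs* and *Apaf1* were close between genotypes. *Cycs* gave 257 UMIs (38.9 CPM) in control and 117 (42.3 CPM) in knockout cells, a ratio of 1.09 (0.866–1.36). *Apaf1* was at 38.0 and 36.9 CPM, a ratio of 0.970 (0.763–1.23). *Casp9* was sparse, with 35 control and 19 knockout UMIs at 5.30 and 6.87 CPM. The interval of its ratio, 1.30 (0.700–2.33), reaches beyond 1.5-fold on the high side, so a difference of that size was not excluded. *Casp2* was at 12.9 and 13.7 CPM, with a ratio of 1.07 (0.708–1.58) whose interval also reaches beyond 1.5-fold.

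*Diablo* was detected in most cells and was nearly equal, at 467 CPM in control and 468 CPM in knockout, with a ratio of 1.00 (0.939–1.07) over 3084 and 1295 UMIs. *Xiap* was lower in the knockout library, at 84.6 against 100.4 CPM, with a ratio of 0.842 (0.723–0.979), inside the 1.5-fold limit. *Endog* was at 16.3 against 13.2 CPM, a ratio of 1.23 (0.842–1.79) whose interval reaches beyond 1.5-fold. The interval of *Xiap* excluded 1 for counting error, but the spread between mice of a genotype is unknown here.

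*Xiap* is X-linked and the libraries differed in sex ratio. Control cells with a Y-linked UMI and no *Xist* had *Xiap* at 96.7 CPM (88.0–106, 702 cells) and control cells with *Xist* and no Y-linked UMI at 107 CPM (90.4–125, 227 cells). The knockout values were 91.7 CPM (76.7–109, 194 cells) and 83.2 CPM (67.9–101, 176 cells), and the intervals of the genotypes overlapped in both kinds of cells. Such overlap does not show equal levels. The knockout over control ratio in cells with *Xist* and no Y-linked UMI was 0.781, lower than in all cells. It rested on 102 knockout and 153 control UMIs. In cells with a Y-linked UMI and no *Xist* the levels lay closer together, at 91.7 CPM in knockout against 96.7 CPM in control. The part of sex in the *Xiap* difference was not tested.

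The knockout and control values were also compared inside each range. In the other cells, *Casp8* was again the 1 gene of the 8 past 1.5-fold, against 11.5% of all genes, and its control UMIs were the same 34. *Xiap* there was at 76.7 against 97.9 CPM, a ratio of 0.783 (0.658–0.929). *Diablo* had a ratio of 1.05 (0.981–1.13) and *Cycs* of 1.15 (0.807–1.63). In the respiratory-high cells 5 of the 8 genes had 30 UMIs and 1 of them, *Endog*, was past 1.5-fold (37.0 against 24.4 CPM, ratio 1.52, 0.750–3.005), against 17.6% of all genes. Its interval holds 1. *Diablo* in these cells was at 532.5 CPM in knockout against 674 CPM in control, a ratio of 0.790 (0.677–0.920), and *Xiap* at 127 against 115.5 CPM, a ratio of 1.102 (0.782–1.54). The *Diablo* and *Xiap* ratios therefore lay on opposite sides of 1 in the 2 ranges, a difference between ranges that was not tested.

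**Figure D1:**
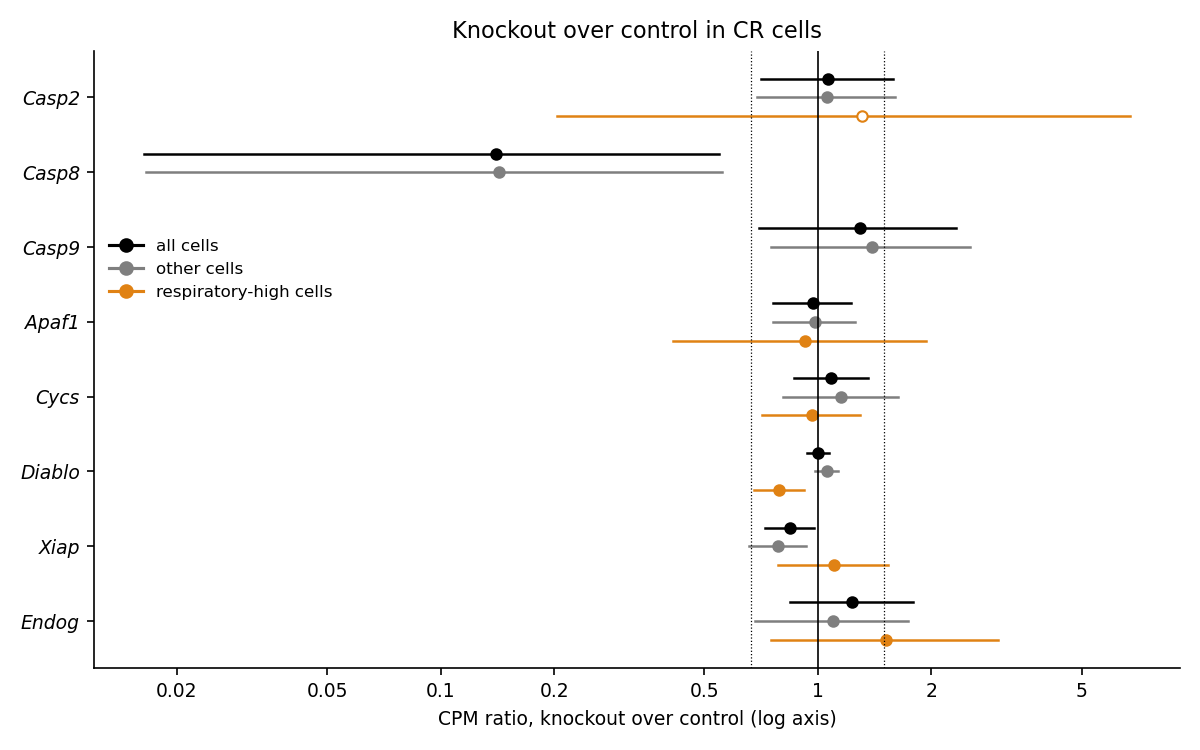
CPM ratio of knockout over control for each gene (log axis), in all CR cells (black), the other cells (grey) and the respiratory-high cells (orange), with 95% counting intervals as lines. Open points have under 30 UMIs, ratios with 0 UMIs on one side are not drawn, and dotted lines mark 1.5-fold. *Casp8*, at 0.140 in all cells, stands apart on the low side, and the interval of *Diablo* is the narrowest.

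More of the 8 genes passed 1.5-fold between the cell ranges of a library than between genotypes. In control, 6 of 8 were past 1.5-fold, 3 higher in the respiratory-high cells (*Cycs*, *Diablo*, *Endog*) and 3 lower (*Casp2*, *Casp8*, *Casp9*), against 55.1% of all genes. In knockout, 6 genes had 30 UMIs and 5 were past, 3 higher (*Cycs*, *Endog*, *Xiap*) and 2 lower (*Apaf1*, *Casp2*), against 51.7%. Differences of this size were thus common among all genes. The *Casp8* and *Casp9* calls in control rested on 0 and 2 UMIs in the respiratory-high cells. Most *Casp8* UMIs of the other control cells came from 1 cell. The *Diablo* call was lost when the counts of an overlapping gene were added, as described below. Of the 6 genes counted in both libraries, *Cycs* and *Endog* were at least 1.5-fold higher in both, where 19.5% of all genes were, and *Casp2* was at least 1.5-fold lower in both, where 15.4% were. The median gene was shifted by -0.15 (log2) in control and -0.10 in knockout.

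Cytochrome c had the highest ratio of the 8 in both libraries. *Cycs* was at 18.6 CPM (15.2–22.5, 105 UMIs) in the other control cells and at 161 CPM (136–189, 152 UMIs) in the respiratory-high ones. In knockout it was at 21.4 CPM (15.9–28.2, 50 UMIs) and 155 CPM (120–197, 67 UMIs). The intervals of the ranges did not overlap in either library, and those of the genotypes did within each range. The ratios were 8.68 (6.72–11.2) and 7.24 (4.95–10.7), higher than those of 99.7 and 98.9% of all genes counted. Relative to the median gene these were 3.27 and 2.96 on the log2 scale. The 98 genes that defined the range had summed ratios of 3.68 and 3.44. Those of them with 30 UMIs, 92 in control and 90 in knockout, had median ratios of 4.59 and 4.62. These values were fixed by the way the cells were chosen. *Cycs* carries electrons between complexes III and IV but was not in that list.

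The *Cycs* level was followed over finer steps of the respiratory share. In control it was 11.9, 18.6, 18.7, 30.4, 114 and 195 CPM in cells with a share below 0.5%, 0.5 to 0.8%, 0.8 to 1.2%, 1.2 to 1.8%, 1.8 to 2.5% and at least 2.5%. In knockout it was 12.9, 17.7, 21.8, 50.3, 92.1 and 197.5 CPM, the fifth value from 13 cells. The level did not drop at any step in either library. In control the step with the largest ratio was the one at 1.8%, where the median depth also rose, from 5277 to 13686 UMIs. In knockout it was the one at 1.2%, from 21.8 to 50.3 CPM, the latter on 9 UMIs. *Diablo* went from 397.5 to 747 CPM over the same steps in control, while in knockout it was 417, 418, 506, 447, 380 and 635 CPM, in no steady order.

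**Figure D2:**
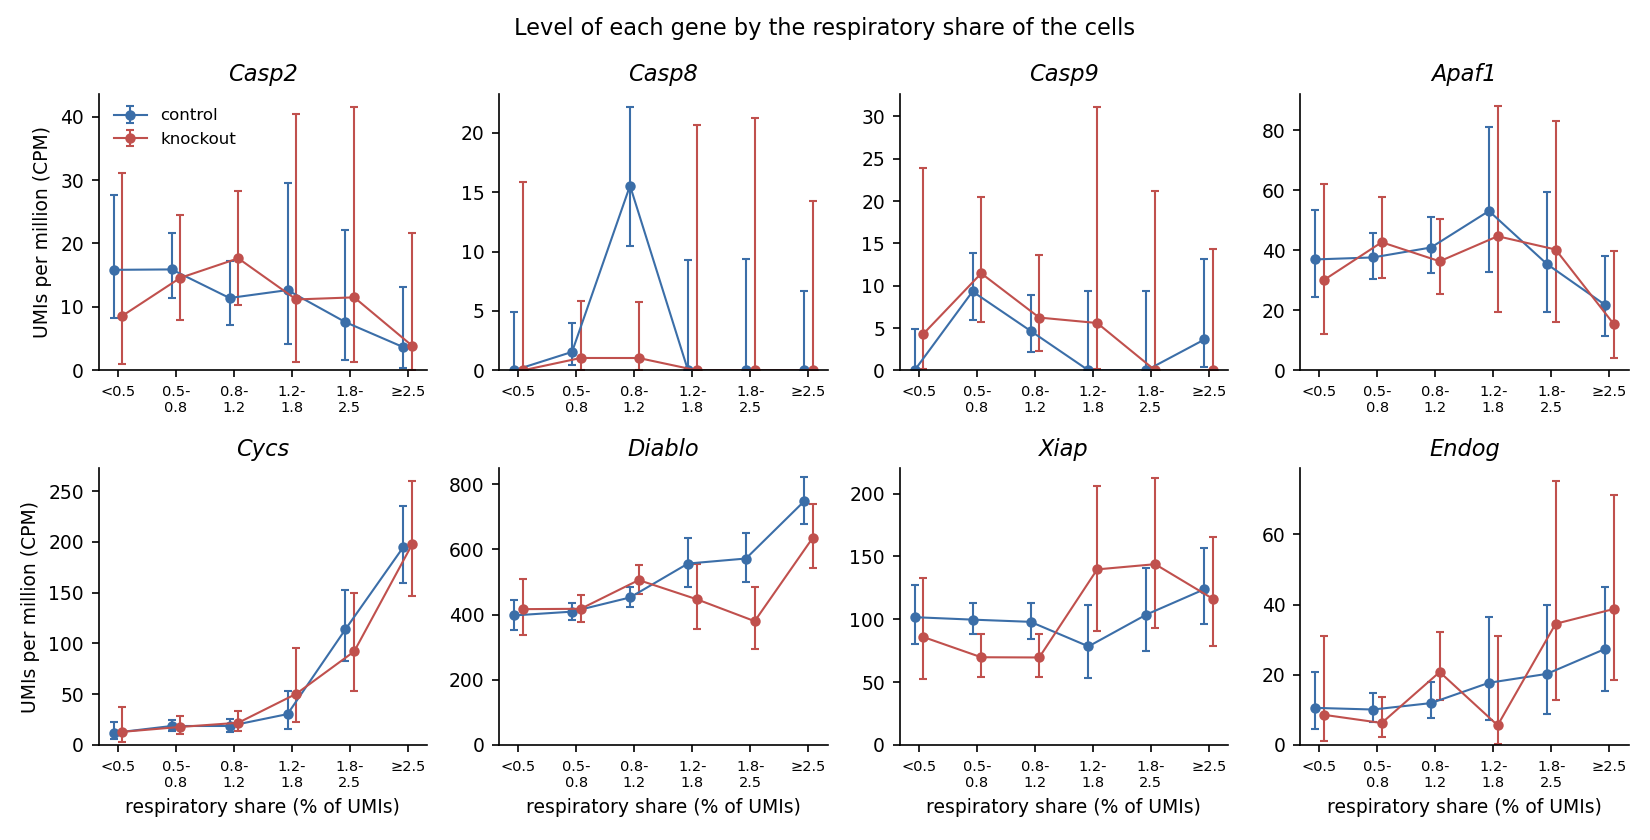
CPM of each gene (vertical axes, each with its own scale from 0) in cells grouped by respiratory share (horizontal axes, % of UMIs), control in blue and knockout in red, with 95% counting intervals. *Cycs* reaches 195 CPM in control and 197.5 CPM in knockout in the highest group, and *Apaf1* and *Casp2* show no such climb.

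Several measurements bear on free RNA and depth. Near-empty droplets held *Cycs* at 251.5 CPM in control and 274 CPM in knockout, above the respiratory-high cells. The droplet profile was subtracted at the same amount for every cell, 89 UMIs in control and 44 in knockout, the medians of those droplets. The *Cycs* ratio was then 10.3 in control and 7.77 in knockout. The control amount lies near the upper limit of 100 UMIs set for droplets and depends on that limit. An equal amount takes a larger share of *Cycs* from the other cells, so a rise was built in. Free RNA that differs between the ranges was not tested. In cells of 8000 to 20000 UMIs alone it was 6.999 and 7.14. With every cell thinned to 2000 UMIs, 28.9% (19.5–39.9) of respiratory-high control cells had a *Cycs* UMI against 3.15% (2.12–4.50) of the others, and in knockout 14.7% (4.95–31.1) against 3.93% (2.17–6.51). The knockout share rests on 5 of 34 cells and its interval overlaps that of the other cells. Thinned to 5000 UMIs, which leaves out shallower cells, the control shares were 43.5% (31.6–56.0) against 7.86% (5.96–10.1). The knockout shares were then 44.8% (26.4–64.3, 29 cells) against 8.62% (5.66–12.5), and the intervals of the ranges did not overlap in either library. Without thinning the shares were 77.1 against 9.89% in control and 76.5 against 10.7% in knockout, and in droplets, at a median of 89 and 44 UMIs, 1.798 and 1.02%. No cells were left out when thinning to 2000 UMIs.

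*Cycs* has near-identical copies, and reads can be split or lost among them. *Gm10053* matches 99.9% of 946 of its 3123 transcript bases, from base 65 to 1010, and was counted 0 times in the cells of both libraries. 3 further copies match inside bases 132 to 450 and are not among the counted features. Libraries were of 3′ ends, and where the *Cycs* reads lie along the transcript was not examined.

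The caspase activators of the apoptosome did not follow *Cycs*. *Apaf1* was at 39.8 CPM (34.7–45.3) in the other control cells and 27.6 CPM (18.0–40.4) in the respiratory-high ones, and at 39.0 CPM (31.4–47.9) and 25.5 CPM (12.7–45.6) in knockout. Its ratios were 0.693 (0.443–1.04) and 0.653 (0.315–1.22), of which the second was past 1.5-fold on 11 UMIs, and both intervals hold 1. *Casp9* gave 33 and 2 UMIs in the other and respiratory-high control cells (5.83 and 2.12 CPM, ratio 0.363, 0.0422–1.42) and 19 and 0 UMIs in knockout. Droplets held *Apaf1* at 18.8 and 20.4 CPM, below the cells of all 4 groups. They held *Casp9* at 8.72 and 9.87 CPM, above both ranges, with intervals that overlapped those of the other cells. UMIs of *Apaf1*, *Casp9* and *Cycs* were found together in 2 of 1003 control and 0 of 390 knockout cells, the latter allowing a share of up to 0.941% by the exact upper limit. This counts cells with UMIs of all 3, not cells that express them.

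The other initiators were sparse. *Casp2* gave 80 and 5 UMIs in the other and respiratory-high control cells, at 14.1 CPM (11.2–17.6) and 5.30 CPM (1.72–12.4), a ratio of 0.375 (0.118–0.911). In knockout it gave 35 and 3 UMIs, at 15 CPM (10.4–20.9) and 6.95 CPM (1.43–20.3), a ratio of 0.463 (0.0911–1.47) whose interval holds 1. The order was the same in both libraries, on 5 and 3 UMIs in the respiratory-high cells. Droplets held *Casp2* at 10.6 and 7.90 CPM, between the ranges. *Casp8* was at 0 UMIs in the respiratory-high cells of both libraries. Against the 34 UMIs in the other control cells, a floor of 3 counts gave a ratio of 0.529, with an interval of 0–0.687. These 34 UMIs include those of the 1 cell described above. Without that cell, 8 UMIs remained, too few to be counted. Any of the 3 initiator caspases had a UMI in 112 control cells (11.2%, 9.28–13.3) and 53 knockout cells (13.6%, 10.3–17.4).

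*Diablo* was at 433 CPM (416–450) in the other control cells and 674 CPM (623–728) in the respiratory-high ones. In knockout it was at 456 CPM (429–485) and 532.5 CPM (466–606). The ratios were 1.56 (1.43–1.70) and 1.17 (1.01–1.35), so the respiratory-high cells were higher in both libraries and past 1.5-fold in control alone. The order in knockout did not hold when the counts of an overlapping gene were added, as described below. Droplets held it at 896 and 912 CPM, above the cells. Thinned to 2000 UMIs, 63.9% (52.6–74.1) of respiratory-high control cells had a UMI against 53.9% (50.6–57.2) of the others, and in knockout 44.1% (27.2–62.1) against 51.4% (46.1–56.7). At 5000 UMIs the shares were 91.3% (82.0–96.7) against 82.8% (79.8–85.6) in control. In knockout they were 93.1% (77.2–99.2) against 83.1% (78.3–87.2), the reverse of the order at 2000 UMIs. The intervals of the ranges overlapped at both depths.

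The *Diablo* count depends on how reads were shared with *Gm49027*, an annotated gene on the same strand that has 1193 exonic bases in common with it and gave 1041 UMIs in control and 393 in knockout cells. *Gm49027* went the other way, with respiratory-high over other ratios of 0.426 (0.328–0.544) and 0.447 (0.297–0.649). When the counts of the 2 genes were added, the ratio for *Diablo* fell within the limit in control, to 1.24. In knockout, where it was within the limit before, it fell below 1, to 0.984. *B3gnt4* on the opposite strand shares 1326 exonic bases with *Diablo*, and the sources used here do not give whether counting used strand.

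*Xiap* was at 97.9 CPM (89.9–106) in the other control cells and 115.5 CPM (94.8–139) in the respiratory-high ones, and at 76.7 CPM (65.9–88.8) and 127 CPM (95.9–166) in knockout. The ratios were 1.18 (0.952–1.45) and 1.66 (1.204–2.26). The higher knockout ratio came with the lowest of the 4 levels, that of the other knockout cells, and the respiratory-high levels of the genotypes overlapped. Droplets held *Xiap* at 106 and 98.7 CPM. Thinned to 2000 UMIs, the shares of respiratory-high and other cells with a UMI were 13.3 and 14.6% in control and 20.6 and 11.8% in knockout, with overlapping intervals. At 5000 UMIs they were 42.0 and 34.4% in control and 41.4 and 27.2% in knockout, and the intervals again overlapped. *Diablo* and *Xiap* had UMIs in the same cell in 38.5% (35.5–41.6) of control and 36.2% (31.4–41.1) of knockout cells. Taken alone, *Diablo* had UMIs in 88.7 and 86.7% and *Xiap* in 42.1 and 38.7% of cells. With *Diablo* in most cells, a joint share near that of *Xiap* needs no link between them, and none was tested.

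*Endog* was at 11.3 CPM (8.71–14.4, 64 UMIs) in the other control cells and 24.4 CPM (15.4–36.6, 23 UMIs) in the respiratory-high ones. In knockout it was at 12.4 CPM (8.32–17.8, 29 UMIs) and 37.0 CPM (21.2–60.2, 16 UMIs). The ratios of 2.15 (1.28–3.52) and 2.98 (1.51–5.67) both had intervals above 1. Droplets held *Endog* at 53.7 and 53.6 CPM, above both ranges. After subtraction of the droplet profile, by the same amount for every cell, the ratios were 2.24 and 3.04, a rise that was again built in. Thinned to 2000 UMIs the shares of cells with a UMI were 2.41 and 2.28% in control and 2.94 and 2.53% in knockout, on 2 and 1 respiratory-high cells, and no order can be read from them. At 5000 UMIs they were 8.70% (3.26–18.0) and 4.66% (3.21–6.51) in control. In knockout they were 20.7% (7.99–39.7) and 4.83% (2.66–7.97), on 6 respiratory-high cells with a UMI in each library. *Endog* shares 379 exonic bases with *Spout1* on the opposite strand.

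**Figure D3:**
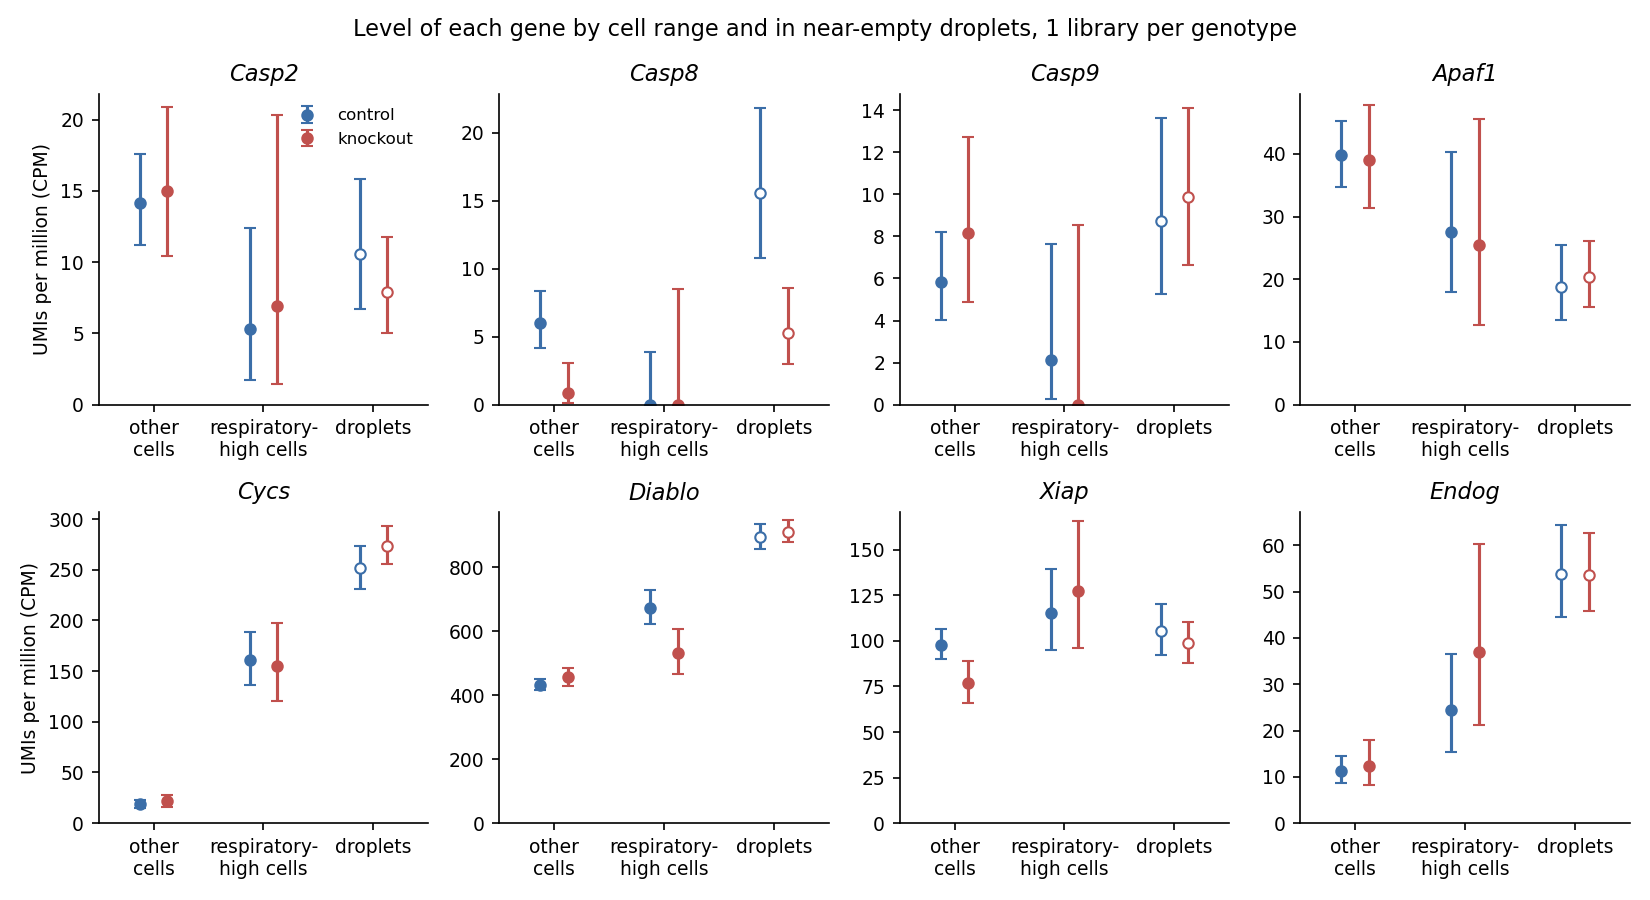
CPM of each gene (vertical axes, each with its own scale from 0) in the other cells, the respiratory-high cells and near-empty droplets (open points), control in blue and knockout in red, with 95% counting intervals. *Cycs* is at 18.6 and 21.4 CPM in the other cells and 161 and 155 CPM in the respiratory-high cells. For *Cycs*, *Diablo*, *Endog*, *Casp8* and *Casp9* the droplets lie above both ranges in both libraries.

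The detected genes of a typical cell were few. Any of the 8 had a UMI in 94.9% of control and 92.6% of knockout cells, and the median cell had UMIs of 2 of the 8 in both libraries, with 3 in the respiratory-high cells and at most 6 in any cell. *Diablo* alone had UMIs in 88.7% of control and 86.7% of knockout cells.

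By the pattern of 3 ratios (respiratory-high over other cells in each library, knockout over control in the other cells), the genes most like *Cycs* among 7176 genes with at least 200 UMIs were *Polr2f*, *H1fx*, *Ddt*, *Tomm6* and *Ndufb4*, at distances of 0.116 to 0.209 on the log2 scale. *Polr2f* encodes an RNA polymerase subunit, *H1fx* a linker histone, *Ddt* a tautomerase, *Tomm6* a subunit of the mitochondrial import pore and *Ndufb4* a subunit of complex I. 1 of these 5, *Ndufb4*, was among the genes that defined the range. The genes most like *Diablo* were *4933434E20Rik*, *Ap1ar*, *Acaa1a*, *Dync1li1* and *Gps1*, at distances of 0.0684 to 0.0909.

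**Figure D4:**
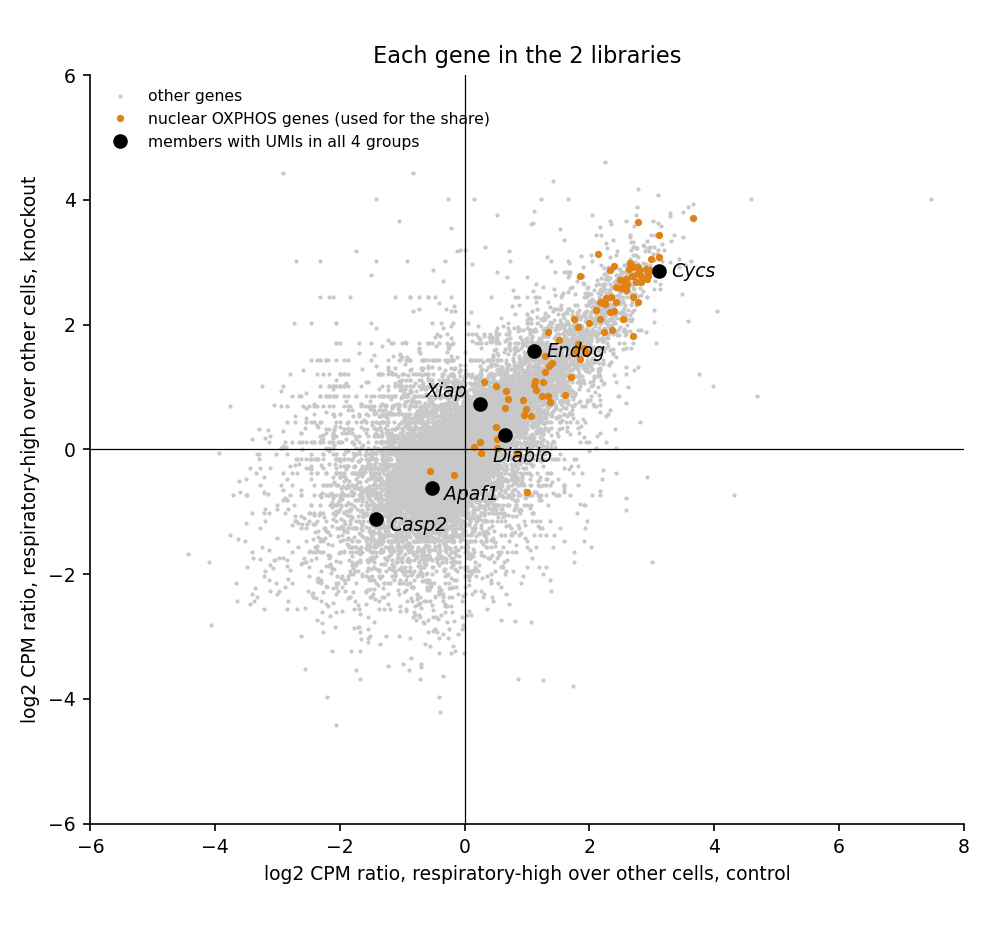
Log2 CPM ratio of respiratory-high over other cells in control (horizontal) and knockout (vertical), with a point for each gene drawn. Grey points are other genes, not all of which have 30 UMIs in the knockout library. Orange points are the nuclear OXPHOS genes that define the range, and black points the members with UMIs in all 4 groups. Genes at 0 in a group are drawn at the floor of 3 counts, which can place sparse genes too high. *Casp8*, with 0 and 2 UMIs in the respiratory-high and other knockout cells, is such a grey point. *Cycs* lies among the OXPHOS genes in the upper right at ratios of 8.68 and 7.24, and *Casp2* and *Apaf1* lie below 0 in both libraries.

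The rest of the pathway was read from 6 lists of 56 genes. Between knockout and control, 32 had 30 UMIs in all cells, of which 0 were at least 1.5-fold higher, against 6.14% of all genes, and 1 was at least 1.5-fold lower, against 4.37%. That gene was *Casp6*, an effector caspase, with 6 UMIs (2.17 CPM) in 6 knockout cells and 39 UMIs (5.91 CPM) in 37 control cells, a ratio of 0.367 (0.127–0.874). Its UMIs were spread over cells, at most 3 in any, unlike those of *Casp8*.

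The most abundant genes of the lists were within 1.5-fold between genotypes, with the intervals of *Birc6*, *Xkr4* and *Vdac1* above 1. *Birc6*, a giant inhibitor of apoptosis protein, had a ratio of 1.11 (1.03–1.195), the death receptor gene *Tnfrsf21* one of 1.06 (0.969–1.15), and *Xkr4*, a scramblase gene, one of 1.16 (1.06–1.27). *Rock1*, a kinase that caspases cleave, had a ratio of 0.928 (0.838–1.03) and the outer-membrane channel gene *Vdac1* one of 1.24 (1.11–1.38). In the respiratory-high cells 22 genes were counted and 4 were at least 1.5-fold higher in knockout, against 8.75% of all genes. Of these *Xkr4* (285 against 123 CPM, ratio 2.32, 1.78–3.01) and *Hax1* (71.8 against 43.4 CPM, ratio 1.65, 1.00–2.70) had intervals above 1. *Xkr4* in the respiratory-high cells was below the other cells of control (ratio 0.503, 0.412–0.608) and not below those of knockout (1.099, 0.897–1.34). The median ratio over the listed genes was 1.12 in all cells, against 1.01 over all genes.

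Between the ranges, 25 listed genes were counted in both libraries, 7 were at least 1.5-fold higher in the respiratory-high cells of both, where 19.5% of all genes were, and 2 lower, where 15.4% were. Of the 8 counted genes of the release list 5 were higher, *Vdac1* (ratios 2.67 and 2.35), *Vdac2* (5.02 and 3.02), *Vdac3* (3.15 and 1.74), *Chchd4* (3.17 and 3.34) and *Hax1* (2.51 and 3.10). *Chchd4* encodes an import factor of the intermembrane space and *Hax1* a mitochondrial anti-apoptotic protein. *Hccs*, which attaches heme to cytochrome c, had ratios of 3.19 (1.88–5.29) and 3.33 (1.67–6.44). *Cyc1*, for cytochrome c1, was the other counted gene of that list. Its ratios were within 1.5-fold and on opposite sides of 1, at 1.41 (1.15–1.72) in control and 0.785 (0.556–1.08) in knockout. *Triap1* had ratios of 2.13 (1.23–3.56) and 2.11 (0.861–4.74), the second with an interval that holds 1. The 2 lower genes were *Cradd*, an adaptor for caspase-2, at 0.580 (0.352–0.909) and 0.446 (0.199–0.879), and *Rock1* at 0.615 (0.508–0.739) and 0.5003 (0.360–0.680).

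The 2 inhibitor genes counted in both libraries had ratios below 1 in each, without passing 1.5-fold in both: *Birc6* had ratios of 0.697 (0.604–0.802) and 0.649 (0.525–0.794), and *Birc2* of 0.645 (0.479–0.853) and 0.816 (0.532–1.21). *Nol3*, an inhibitor counted in control alone, went the other way, with ratios of 3.43 (1.98–5.79) there and 3.09 (1.12–7.89, on 22 UMIs) in knockout. *Htra2* and *Aifm1*, whose products leave the intermembrane space along with cytochrome c, had ratios of 1.30 (0.735–2.18) and 0.882 (0.361–1.88), and of 0.879 (0.594–1.26) and 0.824 (0.472–1.36).

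**Figure D5:**
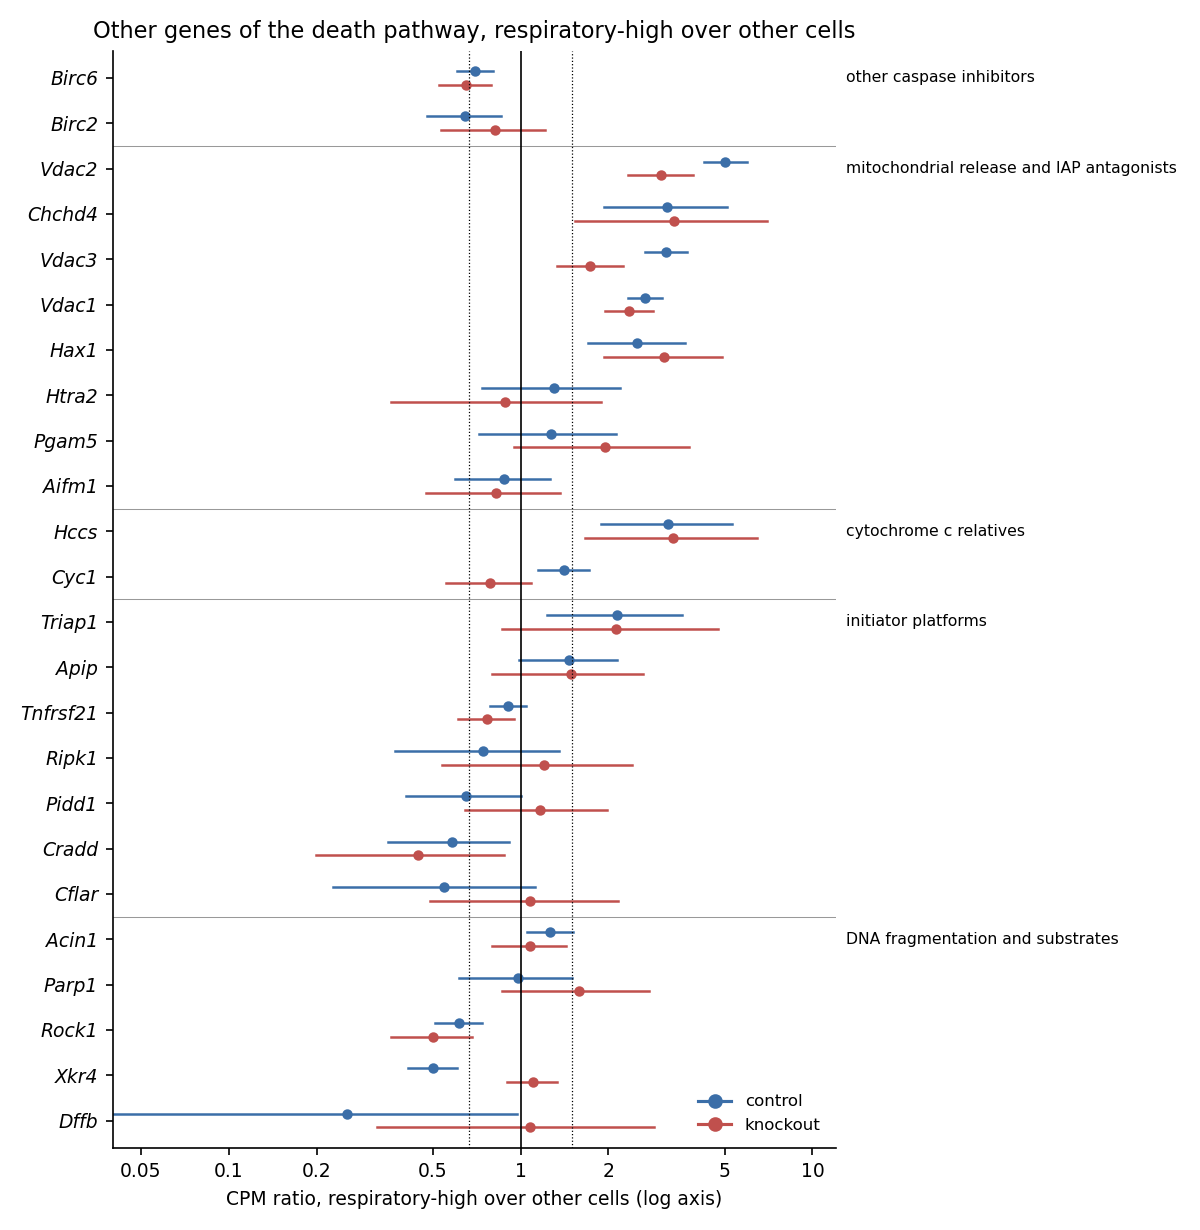
CPM ratio of respiratory-high over other cells (log axis) for the listed pathway genes that were counted in both libraries and are reported here, grouped by list, control in blue and knockout in red, with 95% counting intervals and dotted lines at 1.5-fold. *Vdac1*, *Vdac2*, *Vdac3*, *Chchd4* and *Hax1* lie above 1.5 in both libraries, and *Cradd* and *Rock1* lie below 1.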

How the data were processed

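Sorted hippocampal CR cells of 2 genotypes at P14 were profiled by 10x 3′ single-cell RNA-seq, 1 library per genotype. The authors deposited raw UMI counts per gene and barcode for all barcodes, including empty ones. The file headers name Cell Ranger 4, the submitters' processing notes list Cell Ranger 8.0.1 and mm39, and the study's methods name a further Cell Ranger version with an mm10 reference, so the version and build are not settled. Of the feature identifiers, 99.8% were in the GRCm38 annotation, from which coordinates were taken.

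From the counts, UMIs of the cells of a group were summed and scaled to 1000000 outside mt-, Rpl, Rps and Mrp genes (CPM). Ratios carry exact conditional Poisson intervals and shares Clopper-Pearson intervals at 95%. They cover counting error only. A gene was counted at 30 UMIs over both groups and past at a ratio of 1.5 or its inverse, and a group at 0 was set to a floor of 3 counts. Cells were thinned without replacement to 2000 UMIs, with 5000 as an alternative. No doublet caller was run, and the 1% of cells with the most UMIs and cells with markers of other types were left out as alternatives.

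Python 3.11.15, numpy 2.4.6 and scipy 1.17.1 were used, with edgeR 4.0.16 for scaling factors alone. The scripts were tested on simulated data. The members and gene lists were chosen with earlier results of these data known. Named pathway genes are those past 1.5-fold with an interval off 1, and the most abundant where fewer than 5 qualified. *Birc2*, *Nol3*, *Htra2*, *Aifm1*, *Triap1* and *Cyc1* fall outside this rule and were named after their values were seen. 1 listed gene is not reported here. Proteins are not shown. Promoters are from RefSeq GRCm38.p6 and were matched by symbol.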

Additional observations from a re-analysis of the deposited data

How the results depend on the processing

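No paired analysis was possible because each genotype was 1 library and no value comes from a test, and for the same reason no replicate could be left out. Of the 8 genes, 1 was past 1.5-fold between knockout and control, and 0 were when 100 UMIs were required, without the cell with the most UMIs of each gene, and in cells with *Xist* and no Y-linked UMI. In the last of these *Casp8* turned to a ratio of 2.34 (0.122–138). Between the ranges, 6 genes were past in control, and 2 were at 100 UMIs and in *Xist* cells. In knockout 5 were past, and 3 were at 100 UMIs, at a fold of 2, in cells with a Y-linked UMI and no *Xist*, and in cells of 8000 to 20000 UMIs, and 2 in *Xist* cells, where *Apaf1* turned to 1.19 (0.452–2.67). Except at a fold of 2, these selections hold fewer cells or count fewer genes by construction. At 100 UMIs, 4.4% of all genes were past between the genotypes and 52.3 and 47.1% between the ranges of control and knockout. Over 22 alternatives the respiratory-high over other ratio of *Cycs* was 6.999 to 10.3 in control and 5.79 to 8.44 in knockout, past in all. That of *Endog* was 1.32 to 2.67 and 1.37 to 4.22, past in 21 in each library, and that of *Casp2* was below the limit in 22 of 22 in both. *Diablo* ranged from 1.24 to 1.95 in control, past in 20, the sum with *Gm49027* having been chosen after seeing the data. In knockout *Diablo* ranged from 0.984 to 1.41, past in 0 and above 1 in 21, with the lowest value from that sum. Over 20 alternatives the knockout over control ratio of *Xiap* was 0.781 to 1.102, above 1 in the respiratory-high cells alone. TMM and RLE scaling moved the ranges by 0.088 to 0.144 (log2) and the genotypes by -0.012 and -0.011. Depth limits *Casp8*, *Casp9* and *Casp2*, whose intervals allow large differences.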
